A study of Mus musculus with 36 samples.

Results

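Immunoglobulin-producing plasma cells were collected from single-cell RNA libraries of 30 mouse salivary glands, 26 profiled by Drop-seq and 4 by CITE-seq. A cell barcode was counted as a plasma cell when it carried unique molecular identifiers (UMIs) of at least 3 of the genes Jchain (older name Igj), Mzb1, Xbp1, Derl3, Igha, Ighm and Igkc, when Mzb1 or Derl3 was among them, and when Igkc, Igha, Ighm and Jchain together made up at least 1% of its UMIs. This rule took 186 of the 25993 barcodes that had UMIs of 100 or more genes, with mitochondrial UMIs under 15%, 118 in Drop-seq and 68 in CITE-seq libraries. The cells were selected on these RNA counts, so the counts of the rule's genes describe the selection. The Drop-seq glands came from 12 control mice, 6 of them at postnatal day 40 (P40) and 6 at day 90 (P90), and from 14 double mutants, 7 per stage. By label, 6 control and 6 double-mutant Drop-seq glands were male, and 6 and 8 were female. Control mice carried K14-Cre and the R26-EYFP reporter. Double-mutant mice carried both of these and, in addition, a gain-of-function allele of β-catenin and a loss-of-function allele of Bmpr1a, and they develop tumors of the gland. K14-Cre is active in keratin 14-expressing epithelium and its descendants, so both groups express the recombinase there and neither allele is directed at lymphocytes. All mice were of the C57BL/6 background, and live cells were sorted by FACS as DAPI-negative single cells. Drop-seq cells were fixed in methanol. The 4 CITE-seq glands, 2 of each genotype at P70, were processed fresh, and cells were also stained with antibodies that carry sequence tags. Both double-mutant CITE-seq glands were female, and the controls were 1 male and 1 female. Bulk mRNA was sequenced for 1 gland per genotype, of a control at P70 and of a double mutant at P100, both female.

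Plasma cells are terminally differentiated B lymphocytes that devote their secretory pathway to a single antibody. In salivary glands they secrete mostly immunoglobulin A (IgA), in which heavy chains encoded by Igha and light chains encoded by Igkc or the Iglc genes are joined into polymers by the J chain (Jchain), and the polymeric immunoglobulin receptor of the epithelium (Pigr) carries these polymers into saliva. Xbp1 encodes the transcription factor that enlarges the endoplasmic reticulum (ER) of secretory cells, Mzb1 an ER chaperone of B lineage cells, and Derl3 a component of ER-associated degradation.

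The Drop-seq glands gave 606 to 1209 retained cells and 650301 to 6994504 UMIs each, and the median UMIs per cell lay between 408 and 4671. Replicate 4 of the P90 double-mutant glands has a high ribosomal content, and in replicate 1 at P40 and replicate 5 at P90 of the double-mutant glands the sex-linked genes go against the labelled sex. Barcodes that differ from another barcode of the same gland at a single base were 2.16% of all retained barcodes but 28.5% in P90 double-mutant replicate 1. Among the plasma cells, 8 formed 4 pairs of such barcodes, all in the 2 double-mutant CITE-seq glands. Counting these once left 182 plasma cells. Of the retained barcode sequences, 21 occurred in more than 1 library, and none of these was a plasma cell.

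The immunoglobulin transcripts of the rule made up 50% or more of the UMIs in 135 of the 186 plasma cells. Over the 186 plasma cells, the median share of the immunoglobulin genes of the rule was 59.1% of UMIs, the lowest 1.88% and the highest 74.4%, and 180 cells had 20% or more. In the other 25807 cells the 95th percentile of the same share was 0.147%. Just inside the limit of 1% lay a cell at 1.88% and a cell at 9.05%. Just outside it, the highest of the 386 cells that met the gene part of the rule reached 0.321%. Igha was detected in 186, Jchain in 185, Igkc in 184, Mzb1 in 173, Xbp1 in 172, Derl3 in 99 and Ighm in 8 of 186 plasma cells. Since these genes chose the cells, these values are descriptions. Outside the rule, 51 further cells held 10% or more of the same immunoglobulin UMIs but no UMI of Mzb1 or Derl3. Their median depth was 904 UMIs, against 2483 UMIs in the plasma cells.

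Markers of other cell types were in part at 0 and in part detected. Cd3d, Cd3e, Trac and Trbc2 of T cells, Cd22 and Fcer2a of B cells, Krt8 and Krt19 of duct cells, Krt15 and Trp63 of basal cells and Cdh5 of endothelial cells had no UMI in any plasma cell. Of the 6 T cell markers, 2 were detected, in 2 cells. Of the 6 B cell markers, 3 were detected, mostly Cd79b (50 cells), a part of the antigen receptor. All 8 myeloid markers had UMIs in 27 cells together, and their summed level was 2.82 per 10000 UMIs in plasma cells and 5.65 in other cells. All these marker levels are per 10000 of all UMIs, immunoglobulin included. Immunoglobulin genes took a median of 61.4% of a plasma cell's UMIs, which lowers the level of every other gene there. The myeloid sum and the endothelial sum below are therefore not read as lower in plasma cells. At least 1 of 6 duct markers was detected in 63 plasma cells, mostly Klk1, a salivary kallikrein (59 cells), and Krt18 (11 cells), at a summed level of 2.18 against 142 in other cells. Endothelial markers were detected in 12 cells, Pecam1 in 7 and Plvap in 6 of them, at 0.330 against 0.608, and basal markers in 2 cells at 0.165 against 0.542. All 5 fibroblast markers were detected, in 17 cells, with a summed level of 10.98 per 10000 UMIs in plasma cells, above the 2.71 in other cells. The acinar markers, among them the abundant saliva transcripts Prol1 and Pip, had UMIs in 163 plasma cells at a summed level of 91.4 per 10000 UMIs, against 822 in other cells. Conversely, immunoglobulin UMIs reached the acinar cells, which should lack them. In Drop-seq they made up 0.0121 to 0.384 per 10000 UMIs of the acinar cells in control glands and 0.178 to 3.77 in double-mutant glands, and they reached 16.7 and 14.1 in the double-mutant CITE-seq glands. The part of such free RNA in the results below was not tested.

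The first comparison asked whether plasma cells were more frequent in tumor-bearing glands. They were: the mean share was 0.932% ± 1.04 of retained cells (SD, n = 14) in double-mutant and 0.0746% ± 0.0695 (SD, n = 12) in control Drop-seq glands, 12.5 times higher. In control glands, 5 of 12 had no plasma cell and the others held 1 or 2 each, 8 cells in all among 10743. At P40 the control shares ran from 0% over a median of 0% to 0.117%, and at P90 from 0% over 0.127% to 0.184%. A count of 0 in these 5 glands allows a share of up to 0.262 to 0.467%, for counting error only. In double-mutant glands, all 14 had at least 1, 110 cells among 12603. Their shares ran from 0.299% over a median of 0.484% to 1.65% at P40, and from 0.117% over 0.816% to 4.26% at P90. The groups overlapped little, since 13 of 14 double-mutant glands were above the highest control gland (two-sided permutation test, p = 4.0e-05, adjusted over 7 share comparisons 0.00028). Plasma cells were counted among the cells recovered after dissociation and sorting, so a change in their number and a change in the recovery of other cells cannot be told apart. The median UMIs of the retained cells were 1718 over control and 1097 over double-mutant glands, and after thinning cells to 500 UMIs, which left out 351 control and 2624 double-mutant cells of lower depth, 6 control and 77 double-mutant Drop-seq plasma cells were left.

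**Figure D1:**
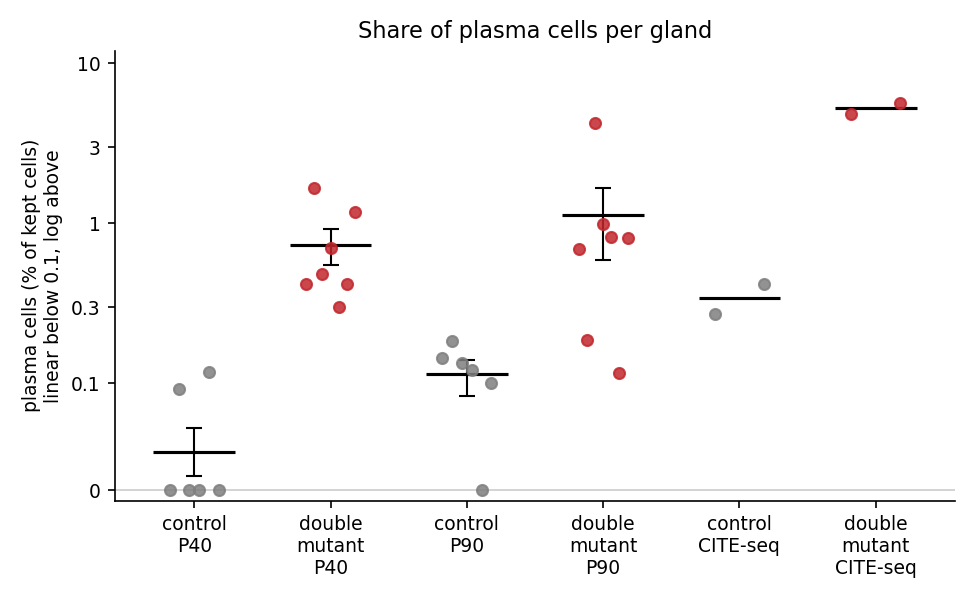
Share of plasma cells per gland (% of retained cells, axis linear below 0.1% and logarithmic above). Each point is a gland, gray for control and red for double-mutant, horizontal bars are means and error bars are SE (none for the 2 glands of each CITE-seq group). The double-mutant glands lie above the control glands at each stage and in CITE-seq, with the exception of P90 double-mutant replicate 4 at 0.117%, which lies among the controls, and replicate 1 at 0.187% lies just above the highest control at 0.184%.

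The higher share was found at each stage. At P40 the mean was 0.736% in double-mutant and 0.0353% in control glands, and all 7 double-mutant glands were above all 6 controls (exact permutation test, two-sided, p = 0.00117, adjusted 0.00408). At P90 the means were 1.13% and 0.114%, and 6 of 7 double-mutant glands were above all controls (exact permutation test, p = 0.00932, adjusted 0.0218). The difference of 1.01 percentage points was 0.491 without P90 double-mutant replicate 7 (exact permutation test, p = 0.0173). Of 5 batches in which both genotypes were present, 4 had the larger share in double mutants, and the mean difference within batches was 0.903 percentage points (exact permutation within batches, p = 0.00347). In batch 9 the single double-mutant gland, the one with the high ribosomal content, was at 0.117% and the mean of the control glands at 0.127%. The CITE-seq glands, which entered none of these tests, held 38 of 668 and 25 of 521 cells (5.69% and 4.80%) in double-mutant and 3 and 2 (0.418% and 0.270%) in control glands. With 2 glands against 2 an exact permutation test cannot go below p = 0.333, the value it gave. Sex was not balanced there, since both double-mutant glands but only part of the control glands were female.

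Stage and sex had no effect that passed the test among double-mutant glands. The mean share was 1.13% at P90 and 0.736% at P40, a difference of 0.392 percentage points (exact permutation test, p = 0.691, adjusted 0.691), and it became -0.131 without P90 replicate 7, the gland at 4.26%. Within the 3 batches that held both stages the P90 gland was higher in each, by 1.35 percentage points on average (exact permutation within batches, p = 0.0833, the smallest p this design allows). Males had a mean of 0.552% and females of 1.22% (exact permutation test, p = 0.211, adjusted 0.296). The difference of -0.665 percentage points was -0.229 without P90 replicate 7. In the 4 batches with both sexes the females were higher in 2 and the males in 2. In control glands the share was 0.114% at P90 and 0.0353% at P40 (exact permutation test, p = 0.0368, adjusted 0.0644), which did not pass the correction, rested on 8 cells and cannot be told apart from batch, because the control glands of P40 and P90 came from separate batches. The difference in stage effect between the genotypes was 0.313 percentage points (permutation of stage within genotype, p = 0.799).

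The antibody transcripts were mostly those of IgA. Igha, Ighm, Igkc and Jchain are genes of the rule, while the IgG and lambda genes are not, so the shares of isotypes and light chains describe cells selected in part on them. The leading heavy chain by UMIs was Igha in 185 of 186 plasma cells (99.5%), in all 13 plasma cells of control glands and in 172 of 173 of double-mutant glands. The exception, in P90 double-mutant replicate 7, had 403 UMIs of Ighg2b, the constant region of IgG2b, and 3 of Igha. Ighd and Ighg1 had no UMI in any plasma cell. Ighm, the constant region of IgM, had 48 UMIs in 8 cells and led in none. Light chains were mostly kappa. Igkc exceeded the lambda constant regions in 178 cells, and lambda led in 8 (4.30%), of which 7 were led by Iglc1 and 1 by Iglc3. Lambda led in 2 of 13 plasma cells of control glands and in 6 of 173 of double-mutant glands. The lambda cells were clear-cut in most cases, as in the P90 control replicate 5, whose only plasma cell had 1979 UMIs of Iglc1 and 0 of Igkc.

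Over the 11 double-mutant glands with at least 5 plasma cells, the median cell gave 16.5 to 31.5% of its UMIs to Igha (median of glands 20.1%), 20.4 to 34.0% to Igkc (24.9%) and up to 10.2% to Jchain (7.38%). Thus in the median gland the heavy chain had 0.720 UMIs for each UMI of Igkc, and the range over glands was 0.608 to 1.24. These are UMIs at the 3' end and not protein.

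**Figure D2:**
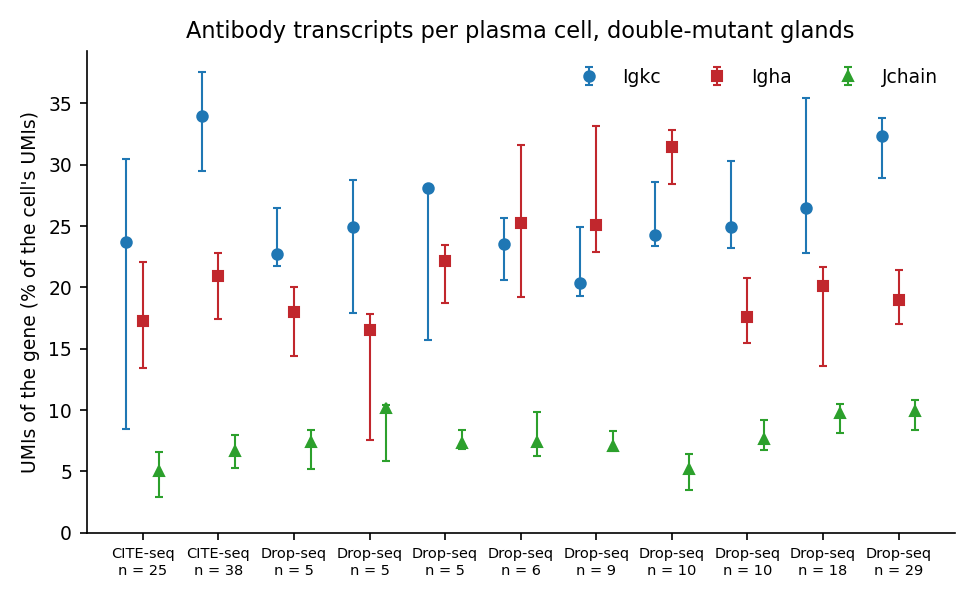
Share of a plasma cell's UMIs taken by Igkc (circles), Igha (squares) and Jchain (triangles) in the 11 double-mutant glands with 5 or more plasma cells. Points are medians over the cells of a gland, bars run from the 25th to the 75th percentile, and n is the number of cells. Igkc and Igha lie between 16.5 and 34.0% in every gland and Jchain lies below both, at most at 10.2%.

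The variable (V) gene segments, which differ between B cell clones, were diverse. A leading kappa V gene with at least 3 UMIs was found in 108 plasma cells, with 42 different genes among them, of which 17 led in a single cell. A leading heavy chain V gene was found in 89 cells, also with 42 different genes, 19 of them in a single cell. Igkv10-96 led in most cells among the kappa genes, 9 cells of 7 glands, and Ighv1-82 among the heavy chain genes, 12 cells of 4 glands, 5 of them in CITE-seq double-mutant replicate 1. V genes are close in sequence and reads at the 3' end cover them poorly, so single assignments are uncertain. Both V genes were known in 67 cells, which formed 53 different pairs. A pair was shared by cells of the same gland in 8 cases with 17 cells, all in the CITE-seq double-mutant glands. In replicate 1, 6 pairs were shared by 2 cells each, whose 12-base barcodes differed at 6 to 10 positions. The other 2 shared pairs, in replicate 2, each included barcodes that differed at a single base. A total of 4 pairs was found in more than 1 gland.

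The germline lambda segment Iglv1 was also found in cells that used kappa. It had UMIs in 146 of the 178 kappa cells, 3063 UMIs in all, although the constant region Iglc1 had 994 UMIs in the same cells. In these cells Iglv1 reached a median of 1.14% of the UMIs of Igkc and at most 8.82%. In the 8 lambda cells the order was the reverse, with 2082 UMIs of Iglv1 and 9641 of Iglc1. Of the 25807 other cells, 55 had a UMI of Iglv1.

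To find what else the cells transcribe, UMIs were summed per gland and population in the 9 double-mutant Drop-seq glands with at least 5 plasma cells, 97 cells with 200086 UMIs against 7905 other cells, and compared within glands (quasi-likelihood test of edgeR, with p-values adjusted over 2280 genes by Benjamini-Hochberg). Higher in plasma cells were 119 genes (5.22%) and lower 711 (31.2%). A level and a fold change are on different scales below. A level is the number of UMIs of a gene per 10000 UMIs that are not immunoglobulin. A log2 fold change is on the TMM scale of edgeR, which is set by the typical gene. A gene's ratio of levels was larger than its TMM fold change, and other cells gave more of their UMIs to saliva transcripts (822 against 91.4 per 10000 UMIs for the acinar markers). When libraries were scaled to their totals without immunoglobulin in place of TMM, log2 fold changes were higher by 1.75 (median), 899 genes were higher and 135 lower, all 111 of the higher genes that remained in that test were again higher, and 132 of 696 lower genes were again lower. The direction of higher calls was therefore the same on both scales, while most lower calls were made on the TMM scale alone. The totals value is given beside lower calls of list genes that it did not call.

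Among called genes outside the rule and the immunoglobulins that were detected in 20% or more of these 97 plasma cells, Ccr10 and Slpi had the largest fold changes. Ccr10 encodes the receptor for the epithelial chemokine CCL28 that guides IgA-secreting cells to mucosal glands. Its level was 1.84 in the lowest, 5.66 in the median and 11.3 in the highest gland in plasma cells, and 0 to 0.0413 in the other cells. Plasma cells were above the other cells in all 9 glands without overlap (log2 fold change 8.36 ± 0.51 SE, adjusted p = 2.4e-58, edgeR's quasi-likelihood test). Ccr10 had 54 UMIs in plasma cells and 7 in other cells. It could thus pass the filter on low counts only through plasma cells, and its p-value is no separate support. Slpi encodes a secreted inhibitor of leukocyte proteases. Its level was 71.6, 122 and 325 in the lowest, median and highest gland, against 0.0597 to 1.07 in other cells (log2 fold change 7.25 ± 0.42, adjusted p = 9.4e-65). It was detected in 161 of all 186 plasma cells. Trp53inp1, a stress-induced regulator of autophagy and transcription, had levels of 11.4, 17.97 and 24.8 against 0.0623 to 0.444 (log2 fold change 4.81 ± 0.37). Cd69, a membrane protein that retains lymphocytes in tissues, had levels of 2.28, 8.49 and 20.3 against 0.0264 to 0.818 (4.24 ± 0.40). Each of these 4 genes separated the populations in every gland. Slpi, Trp53inp1 and Cd69 had 366, 286 and 255 UMIs in other cells, few for the depth of those sums. Like Ccr10, they can have passed the filter only through plasma cells, and their p-values are no separate support. The same can hold for other leading genes with few UMIs in other cells.

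The 15 leading genes further held Cytip (log2 fold change 3.98), a cytohesin-binding protein of lymphocytes, Txndc5 (3.73), a protein disulfide isomerase, AI662270 (3.68), Glipr1 (3.51), Gm8995 (3.48), Edem1 (3.44) and Edem2 (2.82), which direct misfolded glycoproteins to degradation, Prdx4 (3.28), a peroxiredoxin of the ER, Sdc1 (3.26), the plasma cell antigen syndecan-1 (CD138), Fam214a (3.20) and Ccdc88a (2.81). All 15 were also higher in plasma cells than in other cells of both double-mutant CITE-seq glands, which the fit did not use. At the other end were epithelial genes. Krt8, a keratin of simple epithelium, Cldn10, a claudin of tight junctions, and Plet1 had no UMI in the 97 plasma cells, against levels of 0.885 to 5.50, 1.27 to 2.78 and 1.52 to 3.07 in the other cells. Dcpp1 and Dcpp3, secreted salivary proteins, had median levels of 2.28 in plasma cells and of 177 and 116 in other cells. Pigr, which transports IgA through the epithelium, was lower too (log2 fold change -6.14 on the TMM scale and -4.38 on the scale of totals).

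**Figure D3:**
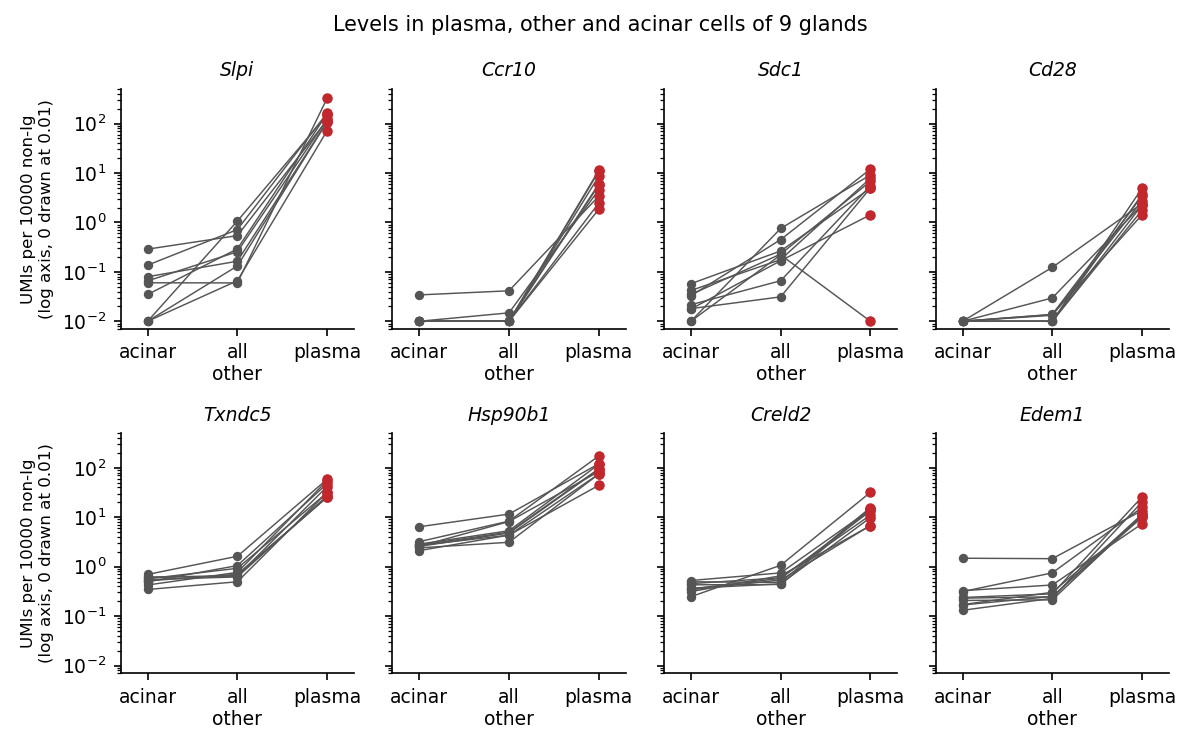
Levels of 8 genes in plasma cells (red), all other cells and acinar cells of the 9 double-mutant Drop-seq glands, as UMIs per 10000 UMIs that are not immunoglobulin, on a logarithmic axis with 0 drawn at 0.01. Lines join the values of a gland. Slpi, Ccr10, Cd28, Txndc5, Hsp90b1, Creld2 and Edem1 are higher in plasma cells in all 9 glands and Sdc1 in 8 of 9.

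The genes of plasma cell identity were detected as a group, although only 4 of 16 passed the filter on low counts. All 4 were higher in plasma cells, namely Slpi, Sdc1, Ell2 (log2 fold change 1.41 ± 0.40, adjusted p = 0.0018, edgeR), an elongation factor that favors the secreted form of heavy chains, and Ly6d (1.30 ± 0.38, adjusted p = 0.0033). Their median was 2.33, against -0.74 over all genes tested. A gene high in few cells can pass the filter only through them, so the 4 do not stand for the list. The other 12 were too sparse for the test in sums over few cells. Ly6c2, a surface glycoprotein, was found in 119 of 186 plasma cells and had levels of 0 to 60.6 against 0.00259 to 0.234 in other cells. Eaf2, a partner of Ell2, was found in 83, Pou2af1, a B cell coactivator, in 76, Tnfrsf17, the survival receptor BCMA, in 75, Slamf7 in 67, Cd79b in 50, Tnfrsf13b, the receptor TACI, in 44 and Cd79a in 31 cells. The transcription factors Irf4 and Prdm1, which direct plasma cell differentiation, were found in 19 and 13 cells, Ly6k in 6 and Cd38 in 1. The median plasma cell held 933 UMIs that are not immunoglobulin, so that the absence of a UMI in a cell does not show that a gene was not expressed.

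Genes that B cells lose when they become plasma cells were mixed. Of 12, only 6 had any UMI in plasma cells. Cd74, the invariant chain of MHC class II, was detected in 165 of 186, and its level was 18.8, 44.1 and 64.6 in the lowest, median and highest gland in plasma cells and 2.08, 11.3 and 50.4 in other cells, with overlap. The class II chains themselves had low levels. H2-Aa was at a median level of 1.43 in plasma cells and of 5.29 in other cells and was lower on both scales (log2 fold change -3.05 ± 0.45 and -1.33). H2-Ab1 and H2-Eb1 were lower on the TMM scale (-1.86 and -2.5), which the scaling by totals did not call (-0.13 and -0.76). On the TMM scale 3 of the 4 genes tested were lower, with a median of -2.18, and by totals 1 was lower and 1 higher. Other cells include macrophages and dendritic cells, which express class II strongly. The part of these cells in the differences was not tested.

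Among 10 homing genes only Ccr10 and Itgb1 could be tested. Itgb1, the β1 integrin, was lower on the TMM scale (-1.94) but not by the scaling by totals (-0.22). In all 186 plasma cells, Ccr10 was detected in 82, Itga4, the α4 integrin, in 25, Itgb7, the β7 integrin that pairs with it, in 17, Cxcr4 in 9, and Ccr9, the receptor of small intestinal homing, in 4. Ccr2 was detected in 4 and S1pr1 in 1, and Cxcr3 in none. Of 8 survival genes, 3 were tested, and Cd28, detected in 18.6% of the 97 plasma cells, was higher, with levels of 1.43 to 4.91 against 0 to 0.123 (log2 fold change 5.54 ± 0.62, adjusted p = 3.7e-17, edgeR). Like Ccr10, Cd28 can have passed the filter on low counts only through plasma cells, so its p-value is no separate support. Cd28, the costimulatory receptor of T cells, is also a survival receptor of plasma cells. Of the 6 T cell markers, Cd3g and Trbc1 had a UMI in 1 plasma cell each and the others in none, and the part of T cell RNA in this result was not tested. Il6st, a receptor subunit for interleukin 6, was lower on the TMM scale (-1.81) but not on that of totals (-0.07). Mcl1, an anti-apoptotic protein, did not pass on the TMM scale (0.05) but was called higher on that of totals (1.82).

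The secretory machinery was the largest set of higher genes among the lists. In the ER folding list 19 of 21 genes were tested, 10 were higher (5.22% of all genes were) and 1 was lower, with a median log2 fold change of 1.18. Hsp90b1, the ER chaperone GRP94, had levels of 44.2, 92.8 and 173.5 in the lowest, median and highest gland in plasma cells, against 3.11, 4.99 and 11.6 in other cells (log2 fold change 2.21 ± 0.32, adjusted p = 1.4e-10, edgeR). Txndc5 had levels of 25.3, 31.9 and 58.6 against 0.495, 0.701 and 1.62. Creld2, an ER stress-induced chaperone, had 6.76, 13.3 and 31.9 against 0.436, 0.579 and 1.07 (2.70 ± 0.35). None of these groups overlapped. The others that rose were Pdia4 (2.5), Txndc11 (2.15), Sdf2l1 (1.99), Manf (1.58), Dnajb11 (1.51), Pdia6 (1.5) and Fkbp2 (1.18), chaperones, disulfide isomerases and their cofactors. Hspa5, the ER chaperone BiP, did not pass on the TMM scale (0.23 ± 0.31), while its level was 12.9 to 29.4 in plasma cells and 4.03 to 9.77 in other cells and it was called higher by the scaling by totals (2.04). P4hb was lower on the TMM scale (-1.68), but its sign turned by the other scaling (0.09).

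In the list of ER degradation and stress, 10 of 14 genes were tested, 7 were higher and none lower, with a median of 1.62. They were Edem1, Edem2, Syvn1 (2.24), the ubiquitin ligase HRD1, its partner Sel1l (1.77), Herpud1 (1.64), Derl1 (1.6) and Edem3 (1.17). Edem1 had levels of 7.36, 11.5 and 25.7 against 0.213, 0.282 and 1.45. Ddit3 and Atf4, effectors of the PERK branch of the stress response, did not pass on the TMM scale (0.24 and 0.23). By the scaling by totals both were called higher (2.04 and 2.02). Of the genes for ER entry and signal peptide removal, 14 of 16 were tested and 5 were higher, the signal peptidase subunits Spcs3 (2.5), Sec11c (1.79) and Spcs1 (1.46), the translocon-associated Ssr4 (1.93) and Srp9 (0.93) of the signal recognition particle. Their median was 0.55. In glycosylation and Golgi export 15 of 16 were tested, 3 were higher, Sec24d (1.62), Krtcap2 (1.2) and Ddost (1.05), and 1, Mcfd2, was lower on the TMM scale (-2.36) but not called by totals (-0.59). The median of the list was 0.27. All 25 genes of these 4 lists called higher were again higher by the scaling by totals. On that scale 17 of 19 folding, 10 of 10 degradation, 13 of 14 entry and 14 of 15 glycosylation genes were higher. Over all genes 899 were higher there, so the number of list genes called depended on the scale.

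Promoters of the folding genes are shown because several carry the ER stress response element (ERSE), the letters CCAAT followed after 9 bases of any kind by CCACG, to which ATF6 and XBP1 can bind. Sequences are from RefSeq on GRCm38.p6, from 250 bases before to 50 after a gene's start. The element was found on either strand in 39 of 32851 promoters (0.119%), and in promoters of 7 of the 18 folding genes that have one in the table. Of 18 tested folding genes with a promoter, it was found in 3 of 9 that were higher (Hsp90b1, Creld2 and Pdia6) and in 4 of 9 that were not (Hspa5, Calr, Canx and Dnajc3). It was also found for Syvn1, 1 of 12 genes of ER degradation, and for none of the 11 genes of ER entry, 12 of glycosylation and 13 of identity. The XBP1-binding element TGACGTGG, or CCACGTCA on the other strand, was found in 222 promoters (0.676%), among them Txndc5, Txndc11, Sec24d, Kdelr3 and Pou2af1. Matches are descriptions of letters, not of binding. The stretches upstream of the start are printed 5′ to 3′ on the gene's strand with the elements in capitals, for Hsp90b1 at chr10:86705503-86705686 (minus strand), where the element occurs once on each strand, Creld2 at chr15:88819490-88819568 (plus strand, element on the other strand), Pdia6 at chr12:17266461-17266539 (plus strand) and 1 of 3 promoters of Txndc5 at chr13:38528015-38528082 (minus strand).
Hsp90b1: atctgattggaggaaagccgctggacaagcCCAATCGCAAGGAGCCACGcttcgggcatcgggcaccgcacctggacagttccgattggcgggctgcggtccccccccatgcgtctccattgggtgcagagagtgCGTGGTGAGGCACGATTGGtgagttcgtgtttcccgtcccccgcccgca
Creld2: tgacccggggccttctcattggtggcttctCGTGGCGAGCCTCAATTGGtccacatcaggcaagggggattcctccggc
Pdia6: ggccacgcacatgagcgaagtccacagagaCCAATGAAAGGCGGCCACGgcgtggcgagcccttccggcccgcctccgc
Txndc5: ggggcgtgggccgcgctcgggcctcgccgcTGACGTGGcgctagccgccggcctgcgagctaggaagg

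Acinar cells also live by secretion, and the comparison with them asked which part of the machinery is particular to plasma cells within the same glands. In the 9 glands, 234 genes were tested, of which 55 were higher (23.5%) and 90 lower (38.5%) in plasma cells (edgeR's quasi-likelihood test). On the scale of totals log2 fold changes were higher by 2.5, 148 genes were higher and 20 lower, and all 46 higher genes that remained were again higher. Without P90 replicate 5 the counts were 106 and 242, and without P90 replicate 7 there were 55 lower genes. The leading genes were Slpi (log2 fold change 8.58 ± 0.44), Ccdc88a (6.04), Mef2c (5.82), a transcription factor of B cells, Trp53inp1 (5.42), Pim1 (4.84), a kinase induced by cytokines, Cd74 (4.19), Txndc5 (3.5 ± 0.17), B2m (3.37), Edem1 (3.24), Dusp5 (2.88), Hsp90b1 (2.54 ± 0.19), Creld2 (2.48), Sub1 (2.47), Tcf4 (2.33), the E protein E2-2, and Rap1a (2.24). Slpi, Ccdc88a, Mef2c and Trp53inp1 had 62, 16, 19 and 66 UMIs in acinar cells. They can have passed the filter on low counts only through plasma cells, so their calls are no separate support. Lower on both scales were the saliva genes Bpifa2 (-7.27), Prol1 (-7.11), Scgb2b26 (-6.82) and Car6 (-6.77), part of which defined the acinar cells.

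**Figure D4:**
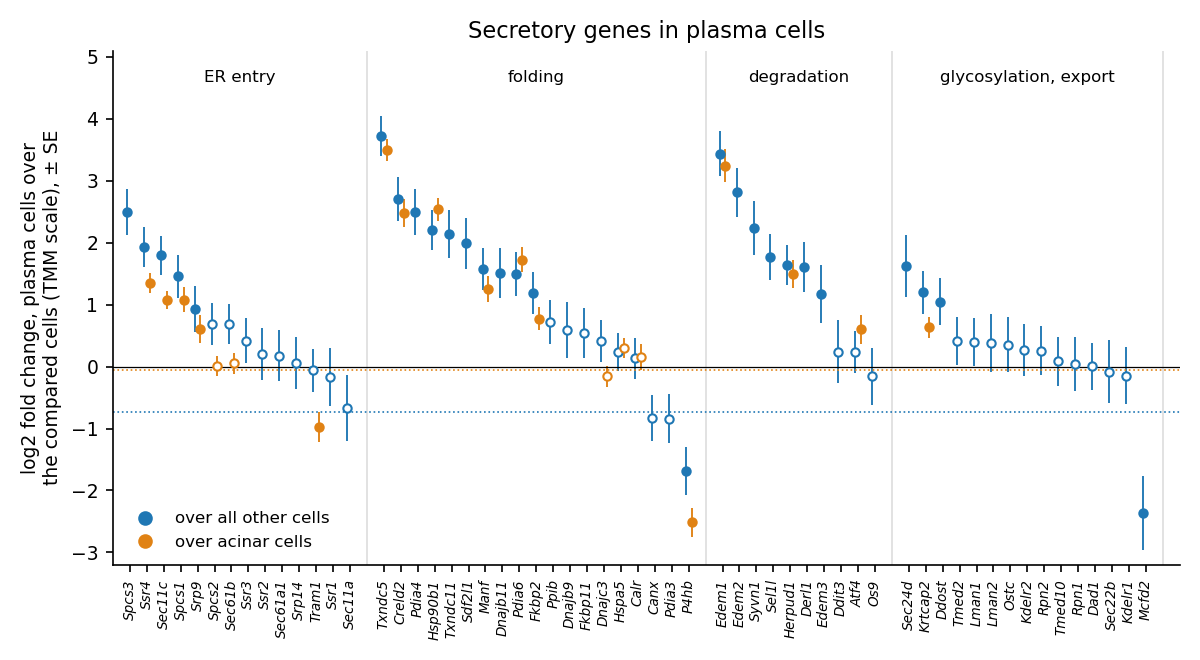
Log2 fold changes (TMM scale, ± SE) of genes of 4 secretory lists in plasma cells over all other cells (blue) and over acinar cells (orange) of 9 double-mutant glands, for genes tested in the first comparison and ordered by it. Filled points passed an adjusted p of 0.05, and dotted lines are the medians over all genes tested (-0.74 and -0.05). Txndc5 and Edem1 lead their lists in both comparisons, and P4hb lies below 0 in both on this scale but at 0.09 and -0.01 by the scaling by totals.

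Of the folding genes, 10 were tested against acinar cells, and 6 were higher: Txndc5, Hsp90b1, Creld2, Pdia6 (1.73), Manf (1.25) and Fkbp2 (0.77), with a list median of 1.01. Hspa5 (0.29), Calr (0.15) and Dnajc3 (-0.16) did not pass on the TMM scale, while Hspa5 (2.79) and Dnajc3 (2.35) were called higher on that of totals. P4hb was lower on the TMM scale (-2.52), with -0.01 on that of totals. Of the ER degradation genes all 3 tested were higher, Edem1, Herpud1 (1.49) and Atf4 (0.61). Of 7 entry genes, Ssr4 (1.35), Spcs1 (1.08), Sec11c (1.07) and Srp9 (0.61) were higher, and Tram1 turned from -0.97 on the TMM scale to 1.62 on that of totals. Krtcap2 (0.63) was the only glycosylation gene tested and was higher. Without the filter on low counts, Sec11c (-0.038), Srp9 (-0.46), Krtcap2 (-0.42), Atf4 (-0.39) and Fkbp2 (-0.30) turned below 0 on the TMM scale. Levels told the difference between both secretory cells most plainly for Hsp90b1, at 44.2 to 173.5 in plasma and 2.11 to 6.42 in acinar cells, and for Txndc5, at 25.3 to 58.6 and 0.345 to 0.696.

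T cells were the nearest lymphocytes with enough cells, since only 5 B cells were found in all libraries. The comparison rests on 3 double-mutant glands with 28 plasma cells and 57 T cells. Of 175 genes tested, 28 were higher (16%) and 11 lower (6.29%) in plasma cells. It depends on single glands: without P40 replicate 2 no gene passed, without P40 replicate 6 the counts were 17 and 4, and without P90 replicate 3 they were 56 and 25. Txndc5 was higher (log2 fold change 7.63 ± 0.70, adjusted p = 2.5e-22, edgeR), as were Cd74 (6.69), Trp53inp1 (4.61), Ssr4 (4.14), Rexo2 (4.01), Sec11c (3.98), Hsp90b1 (3.76), Gm8995 (3.30), Sec61b (2.98), Serp1 (2.93) and Ly6a (2.59). Slpi had 388 UMIs in plasma cells and 0 in T cells. Txndc5 and Cd74 had 1 and 2 UMIs in T cells. These 3 genes can have passed the filter on low counts only through plasma cells, so their calls are no separate support. The saliva transcripts Pip (2.47), Prol1 (2.37) and Wfdc18 (2.29) were among the higher genes as well, but Prol1 was not called on the scale of totals (2.06). Lower were S100a6 (-4.89) and Laptm5 (-2.62), and AW112010, Id2 and Btg1 had 93, 54 and 45 UMIs in T cells and 0 in the 28 plasma cells. In the 97 plasma cells of the 9 glands they had 2, 8 and 3 UMIs. Id2 was also detected in 38.25% of acinar cells. All 6 genes of ER entry and folding tested were higher in plasma cells, and Hspa5 (1.30) among them was not called on the scale of totals (0.94).

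Within plasma cells, no gene that passed the filter on low counts was called between P90 and P40. In 4 glands at P40 and 5 at P90, with sex as a covariate, 0 of 63 genes passed in either direction (0% each) by edgeR's quasi-likelihood test and 0 by DESeq2, with 6 at an unadjusted p under 0.05. Without a filter on low counts 1 gene was higher and 5 lower of 9131, and with at least 10 cells per gland 3 of 197 were lower. A comparison of genotypes within plasma cells could not be made, because no control gland held 5 plasma cells.

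In whole glands, where no cells were chosen, transcripts of plasma cells rose with the double-mutant genotype. All cells of each of the 26 Drop-seq glands were summed and fitted with sex and stage as covariates (edgeR's quasi-likelihood test), and 1224 of 8768 genes were higher (14%) and 670 lower (7.64%). The number of lower genes was 1182 without P90 double-mutant replicate 7, 414 without P90 double-mutant replicate 6, 425 without P40 double-mutant replicate 5, and 433 without either P40 double-mutant replicate 2 or P40 control replicate 5. Without the 3 glands of high ribosomal content or discordant sex genes the counts were 706 and 274. Iglc2 (log2 fold change 4.33), Igkc (3.77), Igha (3.66), Jchain (3.18) and Mzb1 (2.90) were higher in double-mutant glands. Ighm did not pass (1.02, adjusted p = 0.10), nor did Derl3 (-0.69, adjusted p = 0.13) and Xbp1 (-0.17), which are expressed by acinar cells too, with UMIs in 25.3% and 46.0% of them. Of the 16 identity genes 8 were tested and 4 were higher: Slpi (4.50 ± 0.57, adjusted p = 1.4e-05), Slamf7 (2.61), Ly6c2 (2.31) and Sdc1 (1.99). Sdc1 was not particular to plasma cells. In the 9 double-mutant glands compared above, plasma cells held 54 of its UMIs and other cells 301, against 1605 and 366 for Slpi. The part of other cells in these rises was not tested. On the TMM scale the lists of the secretory pathway were not higher in whole glands. Of 21 folding genes none was higher and 2 were lower, of 13 ER degradation genes none and 2, of 16 entry genes none and 4, and of 16 glycosylation genes none and 1, with medians of -0.23, 0.06, -0.44 and -0.29 against 0.01 over all genes. On the scale of totals log2 fold changes were higher by 0.61, and over all genes 4628 were higher and 47 lower. There 9 of 21 folding, 9 of 13 degradation, 3 of 16 entry and 5 of 16 glycosylation genes were higher. With so many genes called, these counts do not set the lists apart. In bulk tissue and in sums over a gland, fewer cells of a type and less RNA per cell cannot be told apart.

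Surface proteins were read by 61 antibody tags, 4 of them isotype controls, in the CITE-seq glands. Values are tag counts per 1000 tag counts of a cell, and they are given as medians over 38 and 25 plasma cells of double-mutant replicates 1 and 2, with no test, since both are single glands. Plasma cells bound fewer antibodies, with a median of 488 and 551 tag counts per cell against 937 and 953 in other cells, and the isotype controls had a median ratio of 1.5 in both glands, so a ratio near 1.5 is the level of background. Ly6C stood out. Its median was 4.68 in plasma and 1.39 in other cells of replicate 1 and 3.22 and 1.16 in replicate 2, ratios of 3.35 and 2.78, the highest of all antibodies in both glands. The median count behind it was 2 and 1 tags per plasma cell. In the control CITE-seq glands, with 3 and 2 plasma cells, the ratio was 1.5 and 0.372. Ly6C is encoded by Ly6c1 and Ly6c2, and Ly6c2 RNA was found in 119 of 186 plasma cells. Low ratios in both glands were found for CD29 (0.641 and 0.499), the β1 integrin, SIRPa (0.668 and 0.495), a receptor of myeloid cells, CD71 (0.701 and 0.648), the transferrin receptor, CD54 (0.596 and 0.721), the adhesion molecule ICAM-1, and CD11b (0 and 0.624), a myeloid integrin, and CLEC12A had a median of 0 in plasma cells of both glands. CD45R (1.55 and 1.11), a marker of B cells, lay within or below the range of the isotype controls. CD69 protein had ratios of 1.05 and 0.887, although Cd69 RNA was among the higher genes. No antibody against CD138 was in the panel.

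**Figure D5:**
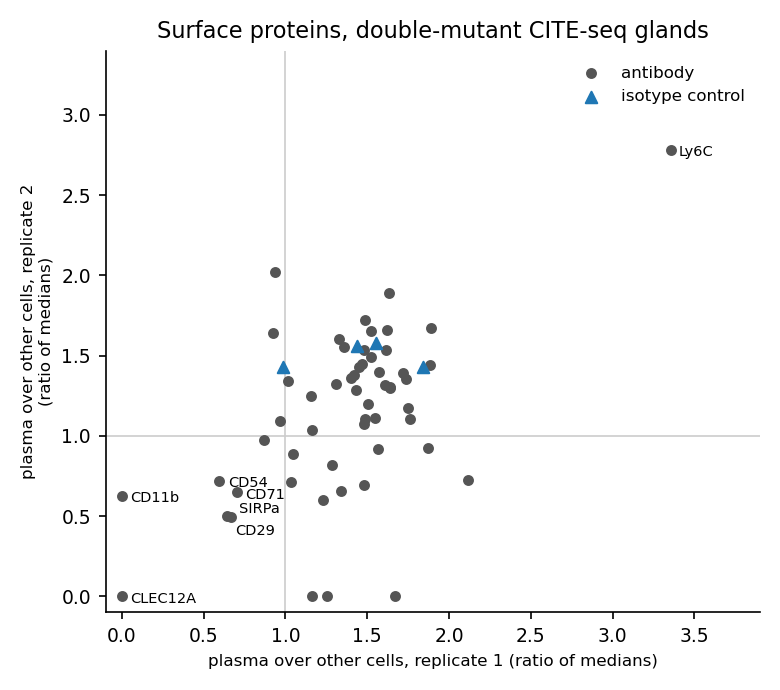
Ratio of the median antibody level (tag counts per 1000 of a cell) in plasma cells to that in other cells, in double-mutant CITE-seq replicate 1 (x axis) and replicate 2 (y axis). Each point is an antibody, triangles are the 4 isotype controls and gray lines mark a ratio of 1. Most antibodies lie near the isotype controls, Ly6C lies highest in both glands (3.35 and 2.78), and CD29, SIRPa, CD71, CD54 and CD11b lie below 1 in both.

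The bulk libraries, 1 per genotype and without a replicate, gave the isotypes by read counts of a gland. In TPM (transcripts scaled by length and depth), Igha was 184 in the control and 597 in the double-mutant gland, a ratio of 3.24. The ratio was 3.32 for Igkc, 3.48 for Jchain, 4.43 for Mzb1 and 8.10 for Slpi. The IgG genes were low but had larger ratios for 3 of 4, namely 36.1 for Ighg3 (6 and 215 reads), 11.5 for Ighg1 (55 and 628 reads), 7.29 for Ighg2c (182 and 1316) and 3.26 for Ighg2b (410 and 1327). Together the 4 IgG genes came to 4.37% of the TPM of Igha in the control and 8.28% in the double-mutant gland. By number of V genes, 66 and 74 kappa V genes had at least 10 reads, and the most abundant in the double-mutant gland was Igkv10-96 with 10.3% of kappa V reads, the gene that also led in the largest number of single plasma cells. The libraries differed in age as well, which cannot be told apart from genotype.

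The partners of plasma cells were read in the surrounding Drop-seq cells. Ccl28, the ligand of CCR10, was found in 15.4% of acinar cells of control and 20.5% of double-mutant glands, and in 5.34% and 5.38% of the remaining cells. Pigr was found in 47.4% and 51.3% of acinar cells. In sums over whole glands, Ccl28 (log2 fold change 0.19) and Pigr (0.39) did not pass on the TMM scale, while on the scale of totals both were called higher (0.77 and 1.07). The bulk libraries, 1 per genotype and of different age, went the other way. Ccl28 was at 34.3 TPM in the control and 18.5 in the double-mutant gland, and Pigr at 129 and 57.1. Cxcl12, the ligand of CXCR4, was rare in acinar cells (0.263% and 0.970%) and found in 2.27% and 4.53% of the remaining cells, and its sum over whole glands was higher in double-mutant glands (log2 fold change 2.35 ± 0.50, adjusted p = 0.0026, edgeR). The survival factors Tnfsf13 (APRIL), Tnfsf13b (BAFF) and Il6 were each found in fewer than 1% of acinar and of remaining cells in both genotypes. Mki67 or Top2a, transcripts of dividing cells, had a UMI in 22 of 186 plasma cells (11.8%), in 14 of 195 T cells (7.18%) and in 3.09% of other cells, at median depths of 933, 749 and 1476 UMIs that are not immunoglobulin. At least 2 of 8 cell cycle genes were found in 9 plasma cells (4.84%), in 13 T cells (6.67%) and in 2.5% of other cells, so the order of plasma and T cells depended on the measure.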

How the data were processed

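Single cells of mouse salivary glands were profiled by Drop-seq and CITE-seq, and 2 bulk libraries by mRNA-seq. The authors deposited gene by cell tables of UMI counts, made with the Drop-seq tools and STAR on mm10 with human spike-in cells removed, antibody tag counts (whether UMIs or reads is not given in the sources used here), and bulk read counts per gene from STAR and featureCounts, from which TPM were computed here. Depth was 650301 to 6994504 UMIs per Drop-seq gland, which limits rare cells and sparse genes. Barcodes with at least 100 genes and under 15% mitochondrial UMIs were kept, and groups followed the labels. The members and gene lists were chosen with earlier results of these data known.

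No doublet caller was run, and 24 plasma cells with markers of another cell type were left out in an alternative. T cells held UMIs of at least 2 of 6 T cell genes, and acinar cells at least 5% of UMIs from 5 saliva genes. Shares of cells per gland were compared by permutation (100000 resamples, or exact), with adjustment over 7 comparisons. UMIs summed per gland and population, in glands with at least 5 cells of each, were fitted by edgeR 4.0.16 (TMM, filterByExpr, quasi-likelihood, gland as a block) in R 4.3.3, with adjusted p-values over all genes tested and a threshold of 0.05. Nothing states whether glands share a litter, so p-values of shares measure the spread between these glands. Those of edgeR also draw on a spread estimated over all genes tested. They can therefore be far smaller than the 3 or 9 glands of a comparison would give for a single gene. Named genes were those of the lists and, per comparison, the 15 largest and 5 smallest called fold changes among genes detected in 20% of cells, without genes of the rule and immunoglobulins. Alternatives were DESeq2 1.42.0, a mixed model (lme4 1.1.37), other filters, thresholds and scalings, thinning to 500 UMIs and leaving out glands. The scaling by totals, the added CITE-seq glands, the rule without Mzb1 and Derl3, merging of near barcodes and permutation within batches for stage and sex were added after seeing the data. The scripts were tested on simulated data. Antibody and bulk values have no test. Values of some genes and antibodies are not reported here.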

Additional observations from a re-analysis of the deposited data

Results flagged for a closer look

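The share of plasma cells in P90 double-mutant replicate 7 was 4.26% (29 of 680 cells), and it stood apart from the other 6 double-mutant glands of that stage, which reached at most 0.990%. The gap to the nearest gland was 0.789 of the range of the group, above Dixon's limit at 95% for 7 glands, a limit that chance passes in about 1 of 20 groups.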

How the results depend on the processing

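Shares of plasma cells kept their direction and side of the threshold in 74 of 78 values under other settings, and a mixed model gave a log odds of 2.43 ± 0.456 (SE) for the double-mutant genotype. The control difference between stages lost its unadjusted call with at least 200 genes per cell (0.0843), over immune cells (0.455) and after thinning (0.0413), and ran from 0.0647 to 0.101 without single glands. The double-mutant difference between stages ran from -0.131 to 0.560, and it reversed without P90 replicate 7. Equal replicate numbers did not pair the glands at both stages. Of 12 pairs, 5 correlated above 0.1, all of them at P40. Correlations ran from -0.165 to 0.503 at P40 and from -0.270 to -0.0114 at P90. With the replicate block over 6 pairs, which leaves out P90 replicate 7 as it has no partner, the P90 genotype difference was 0.491 and lost its call, and the same glands without the block gave the same difference and kept it. In the block, whole glands had 1541 higher and 1362 lower genes.

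Counts of higher and lower genes moved as follows, and the cause was not tested except where fewer or more genes were tested. Against other cells they were 288 and 3684 without a filter and 899 and 135 by totals, and 350 were lower with at least 10 cells. Against acinar cells they were 309 and 2784 without a filter, 148 and 20 by totals, 105 and 182 with the CITE-seq glands, and 106 and 232 without the 3 doubted glands (P40 replicate 1 and P90 replicates 4 and 5), and 56 were lower without immunoglobulin genes. Against T cells they were 17 and 6 without a filter, and 22 were lower with the CITE-seq glands and 7 without immunoglobulin genes. The limit of 10 cells was not run there. Between stages they were 1 and 5 without a filter, and 3 were lower with at least 10 cells. In whole glands 2137 were higher without a filter, and the counts were 4628 and 47 by totals and 706 and 274 without the doubted glands. Without single glands, counts ran from 0 to 56 higher and 0 to 25 lower against T cells, 38 to 106 and 55 to 242 against acinar cells, 99 to 127 and 625 to 858 against other cells, 878 to 1530 and 414 to 1182 in whole glands, and 0 to 0 and 0 to 1 between stages.

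Of 954 values of named genes, 855 kept direction and call and 8 reversed. By totals these were P4hb against other cells (0.091), Tram1 against acinar cells (1.62) and Xbp1 in whole glands (0.39). Without a filter, against acinar cells, they were Atf4 (-0.39), Fkbp2 (-0.30), Krtcap2 (-0.42), Sec11c (-0.038) and Srp9 (-0.46).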
